A study of Oryza sativa with 8 samples.

Results

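A set of 134 microarray probes, of 40832 on the array, read at least 2-fold lower in every male-sterile sample than in the fertile line. A probe was taken when each of the 6 arrays of cytoplasmic male sterile (CMS) rice lay at least 1 below the array of the fertile maintainer line with the same replicate number, on the log2 scale with intensities under 16 set to 16. The rule was met by 145 probes, 0.355% of all probes and 1.54% of the 9443 probes that reached 32 on both maintainer arrays, as the rule requires. Of these, 11 were left out because they lie in genes that the rule excludes by name (any EXPA expansin gene and a list that begins with OsC6 and OsC4), which left the 134 members. The reverse rule, at least 1 above the maintainer on every CMS array, was met by 20 probes, 0.049%. Since the members were chosen by these ratios, every ratio to the maintainer below is a description and carries no test.

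RNA was measured on 8 arrays, 2 biological replicates for each of 4 rice lines, at the uninucleate microspore stage. Meixiang B (MB) is the fertile maintainer, and the male-sterile lines are labelled D62A (D type cytoplasm), ZhenShan97A (WA type) and XQZ-A (DA type). Each was made by repeated backcrossing to MB, so that all lines carry mostly the MB nucleus and differ in cytoplasm. The replacement of the nucleus was incomplete and unequal among the CMS lines, so cytoplasm and remaining donor nuclear segments cannot be told apart. The labels give the tissue as young panicle and the methods as anther. In the supplementary value tables of the study, the columns headed for the D and DA types hold the values of arrays that the labels give to the other type. The array labels were followed here for line names, and a statement on D62A or XQZ-A would exchange names under the other reading. Plants were not treated, and no age beyond the stage is given.

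In CMS rice, pollen fails because of factors carried in the mitochondria when the nucleus lacks a gene that restores fertility. The lines used here are of the sporophytic kind, in which the tissue of the mother plant around the microspores is affected. The tapetum, the innermost layer of the anther, feeds the microspores and makes the lipid precursors of sporopollenin, the polymer of the outer pollen wall. Enzymes that modify fatty acids, proteins that carry lipids, and proteases that act as the tapetum dies are characteristic of it.

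Of the 134 members, 84 lie in a single RefSeq gene (83 different genes, since LOC4341486 has 2 member probes), 3 lie in several genes and 47 in none. Only 5 of the genes have a RefSeq name. The others are given by locus, or by a name from the study's annotation or from the list of pollen wall genes described below. An annotation from the study's tables could be tied to 69 members, 46 of them in a single gene. The tables list probes that the study selected on these arrays, so the annotated members are not an independent sample. A further 38 members have a gene and no annotation, and 27 have neither. Chromosomes are those of the RefSeq assembly ASM3414082v1; coordinates are not given, because the build behind the array is not stated.

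Precision was limited by the number of arrays, 2 for each line, and replicate 2 was brighter at the low end. Median intensity over all probes was 7.65 to 8.15 on the replicate 1 arrays and 19.2 to 20.6 on the replicate 2 arrays. An intensity under the floor of 16 is treated as not measured, and a ratio that rests on it is a bound, as is a median that averages such a ratio. For the tapetum, 4 of 6 listed markers could be tied to a probe by RefSeq name. Their summed intensity was 1094 and 3386 on the MB arrays and 73.1 to 391 on the CMS arrays. For lemma and palea (3 of 4 markers) the sum was 548 and 627 in MB and 425 to 943 in the CMS lines. For stamen and lodicule (3 of 5) it was 869 and 1471 against 530 to 1023, for carpel and ovule (2 of 3) 46.9 and 100.1 against 25.2 to 72.6, and for green leaf (4 of 6) 108 and 354 against 85.6 to 299. RTS, another marker of that list, was tied only through the study's annotation and is not in the sum. No probe was tied to any of the 4 late pollen markers, while UDT1 and RCA stayed under the floor on every array and MADS21 reached it on a single array, with 16.02. OsC6 and OsC4, which met the rule and were left out of the set, made up nearly all of the tapetum sum in MB. Since both met the same rule as the members, the lower tapetum sum in the CMS lines follows from the rule and is no separate reading. The part of that sum in the results was not tested. In such bulk samples fewer cells of a type and less RNA per cell cannot be told apart.

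The deepest decreases were found in genes of lipid metabolism, in a subtilisin-type protease and in probes with no gene. In what follows, 2 intensities joined by "and" are replicate 1 and replicate 2 of a line. OsSub42 (Os04g0543700), annotated as a subtilisin homologue, a serine protease, read 306 and 884 in MB. Its CMS arrays read 13.8 and 20.9 in D62A, 12.6 and 32.9 in ZhenShan97A, and 11.7 and 16.9 in XQZ-A, so that every replicate 1 value was under the floor. The median of the 6 log2 ratios was −4.50, a level at least 22.7-fold lower.

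LOC4328039 on chromosome 2 (Os02g0110000) encodes a GDSL-type lipase, one of a large plant family of lipid hydrolases. It read 218 and 376 in MB and never above 11.7 on a CMS array. With all 6 CMS arrays at the floor, its median log2 ratio of −4.16 is a limit, so the level was at least 17.9-fold lower. LOC4330311, also on chromosome 2, is annotated as a HOTHEAD precursor; in Arabidopsis, HOTHEAD is needed for the cuticle that keeps floral organs apart. It read 87.1 and 920 in MB and from 3.84 up to the floor of 16 on the CMS arrays. Its ratios ran from −5.85 to −2.44.

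A second GDSL lipase, LOC4346354 on chromosome 8 (Os08g0565900), was among the brightest members in MB with 446 and 1618. D62A read 36.0 and 60.3, and XQZ-A read 21.7 and 61.7. ZhenShan97A kept 192 and 395, well above both other CMS lines and still below MB on the array of the same number. The median ratio was −4.0 and the highest, on ZhenShan97A replicate 1, was −1.21. Bowman-Birk inhibitors block trypsin-like proteases, and one of them, BBTI8 (LOC4325989, chromosome 1), read 458 and 431 in MB. Its CMS intensities were 39.7 and 118 in D62A, 41.8 and 74.8 in ZhenShan97A, and 21.1 and 49.3 in XQZ-A, with a median ratio of −3.29.

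Several deep members have a gene and no description. LOC4344143 on chromosome 7 read 191 and 839 in MB and 27.7 to 58.7 over the CMS arrays, and its median ratio was −3.31. LOC4336725 on chromosome 4 read 65.2 and 538 in MB, against 2.75 to 5.02 on replicate 1 and 19.7 to 24.8 on replicate 2 of the CMS lines (median −3.23). For LOC4335043 on chromosome 4, MB read 149 and 716, ZhenShan97A 53.3 and 76.2, D62A 25.8 and 41.8, and XQZ-A 9.78 and 16.5. This full order of the lines was not counted over the members. XQZ-A was the lowest line in 70.9% of the members and in 51.4% of the probes that could meet the rule, as described below. LOC9267479 (chromosome 4, −3.19) and LOC4352215 (chromosome 12, −2.93) complete the 10 lowest members with a gene, and the study's annotation of both is only "expressed protein". The lowest median of all members, −4.53, belonged to a probe with no gene and no annotation, which read 206 and 888 in MB and 6.46 to 21.6 in the CMS lines.

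**Figure D1:**
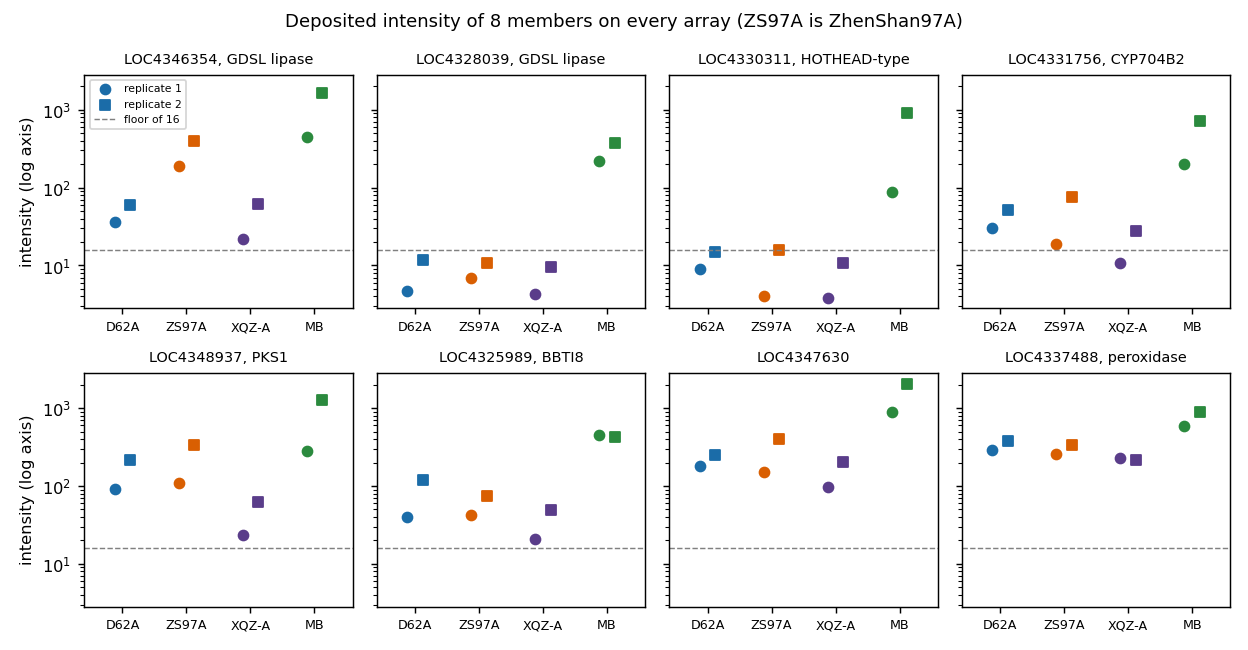
Deposited intensity on a log axis for 8 members in the 4 lines; circles are replicate 1, squares replicate 2, and the dashed line is the floor of 16. LOC4328039 stays under the floor on all 6 CMS arrays, while LOC4346354 keeps 192 and 395 in ZhenShan97A.

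Over all 134 members the median log2 ratio ranged from −4.53 to −1.02, with a median of −1.89, against 0.04 over the probes that could meet the rule. A decrease of at least 4-fold was found in 57 members, of at least 8-fold in 17 and of at least 16-fold in 5. The floor limits this depth: 8 members were at the floor on all 6 CMS arrays, 69 on some of them and 57 on none. In 114 members all 6 CMS arrays lay below both MB arrays, as they did for 6.65% of the probes that could meet the rule; in the other 20 a CMS array of replicate 2 reached or passed MB replicate 1.

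The mean log2 intensity in MB ran from 5.02 to 10.41 with a median of 7.14, and 36 members (26.9%) reached 8 or more. Among the probes that could meet the rule the median was 6.58, and 14.8% reached 8. A bright MB signal leaves more room above the floor, so the depth of a decrease and the level in MB are not independent readings. Intensities of different probes do not measure relative amounts of RNA, and the order by MB level only says which probes were read far above the floor. Of the 10 brightest members with a gene, LOC4346354 alone was also among the 10 with the lowest ratios. LOC4347630 on chromosome 9, which has no annotation, was the brightest with 892 and 2069 in MB. Its CMS values were 178 and 250 in D62A, 151 and 406 in ZhenShan97A, and 96.7 and 206 in XQZ-A, a median ratio of −2.81.

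**Figure D2:**
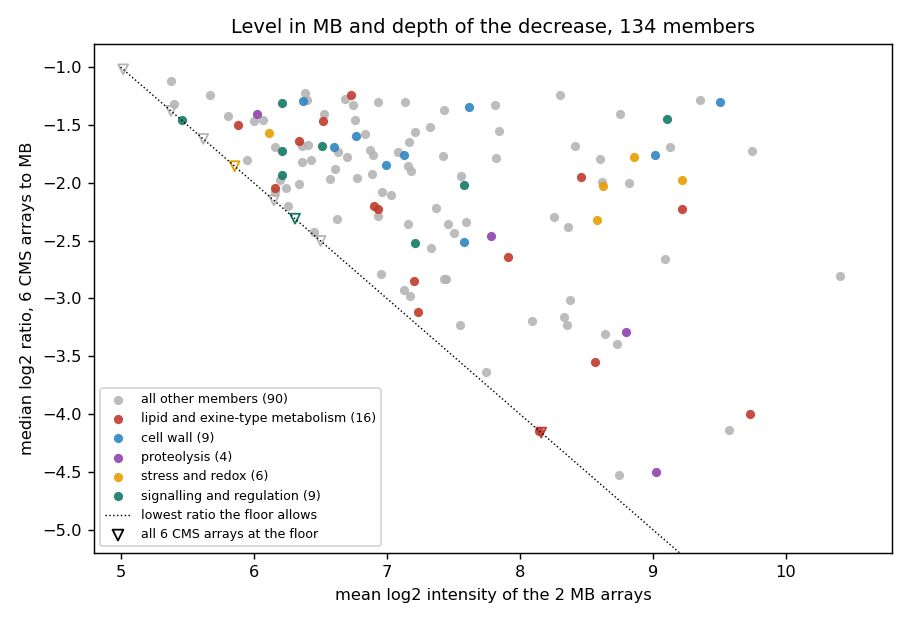
Median log2 ratio of the 6 CMS arrays to MB (vertical axis) against the mean log2 intensity of the MB arrays (horizontal axis), 1 symbol per member, coloured by annotation group. Triangles are the 8 members at the floor on all CMS arrays, which lie on the dotted line, the lowest ratio that the floor allows.

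Words for lipid metabolism and exine-type enzymes gave the largest annotated group. It held 16 of the 69 annotated members (23.2%), while 7.92% of all probes tied to the study's annotation fall in it. Their median ratios ran from −4.16 to −1.25, and 11 of the 16 were at least 4-fold lower. Some annotations in the group name no lipid or exine step. Examples are a strictosidine synthase (Os07g0614000), a cytochrome P450 (Os04g0407900) and the dihydroflavonol-4-reductases Os08g0515900 and Os10g0576900. This and the other groups below were formed by words in the annotation. The words covered the members better than the other probes: 14.5% of annotated members fell in no group, against 48.4% of all tied probes. The shares given for single groups therefore cannot show that a group is particular to the members. Of the 568 tied probes, 382 had a median ratio below 0. The share over all tied probes thus includes probes that were not lower in the CMS lines, and no group share was tested. CYP704B2 (LOC4331756, chromosome 3) hydroxylates the end of long fatty acids for cutin and sporopollenin, and it read 203 and 707 in MB. In D62A it read 30.1 and 51.5, in ZhenShan97A 18.8 and 75.1, and in XQZ-A 10.7 and 27.9, with a median ratio of −3.55. CYP703A3 (Os08g0131100), which hydroxylates medium-chain fatty acids within the chain, read 68.5 and 218 in MB against 11.5 to 42.5 over the CMS arrays, all of them below both MB values. Its median ratio was −2.23.

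The polyketide synthase PKS1 (LOC4348937, chromosome 10; annotated as a stilbene synthase) extends the hydroxylated fatty acids. It read 284 and 1254 in MB, 110 and 334 in ZhenShan97A, 91.0 and 216 in D62A, and only 23.4 and 62.6 in XQZ-A. The ratios of XQZ-A, −3.60 and −4.32, were thus far below those of the other lines, which lay between −2.54 and −1.38. TKPR2 (LOC4325988, chromosome 1) reduces the polyketide product. It read 64.2 and 224 in MB and under 8 on all replicate 1 CMS arrays, so that replicate 1 gives only a bound of −2.0; on replicate 2 the CMS lines read 33.4 to 42.6.

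The group also held a lipid carrier and enzymes of isoprenoid and steroid metabolism. LTPL3 (Os08g0360700), annotated as a lipid transfer protein, read 78.5 and 289 in MB and no more than 18.8 in the CMS lines (median −3.12). LOC4331418 encodes hydroxymethylglutaryl-CoA synthase of the mevalonate route to sterols and other isoprenoids, and its median ratio was −2.04. For LOC4324516, annotated as a steroid dehydrogenase, MB read 196 and 630, D62A 69.5 and 125, ZhenShan97A 66.1 and 207, and XQZ-A 40.1 and 57.7 (median −1.95).

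The cell wall group held 9 members, 13.0% of those annotated against 5.81% of all tied probes, with medians between −2.51 and −1.29. Pectin enzymes or their inhibitors made up 4 of the 9. LOC4337488, a peroxidase precursor on chromosome 4, was bright in every line: 595 and 891 in MB, 292 and 383 in D62A, 258 and 335 in ZhenShan97A, 227 and 213 in XQZ-A. Its median ratio of −1.30 lay little past the threshold. The invertase and pectin methylesterase inhibitor family gene LOC4342040 read 431 and 619 in MB and 105 to 262 in the CMS lines (−1.76), and the pectinesterase LOC4324842, which removes methyl groups from pectin, read 148 and 261 against 54.2 to 110 (−1.35). A pectate lyase (LOC4335013, −1.69) and a polygalacturonase (Os05g0578600, −1.76), which both cut pectin chains, were also members. The beta-hexosaminidase gene LOC4324914 read 91.3 and 402 in MB, 17.5 and 131 in ZhenShan97A, and 1.80 to 9.78, under the floor, in D62A and XQZ-A. ZhenShan97A thus stood apart on replicate 2 alone, and its difference from the other lines had a limma adjusted p of 0.193.

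Proteolysis was represented by OsSub42 and BBTI8, described above, with a ClpX subunit of an ATP-dependent protease (Os01g0886600, −2.46) and a carboxyl-terminal peptidase (LOC4346356, −1.41). Together these were 5.80% of the annotated members, against 2.29% of all tied probes. The stress and redox group had 6 members (8.70%, against 3.35%). CRP2 (Os04g0677600), annotated as a cysteine-rich protein, read 313 and 1138 in MB, 95.6 and 240 in D62A, 102 and 400 in ZhenShan97A, and 26.2 and 65.05 in XQZ-A. As for PKS1, the ratios were lowest in XQZ-A, −3.58 and −4.13, and between −2.25 and −1.51 in the other lines. LOC4324254, a late embryogenesis abundant protein, read 288 and 750 in MB and 87.0 to 211 in the CMS lines (−1.78). LOC4324678, a thioredoxin, which reduces disulfide bonds, had a median ratio of −2.03, and the desiccation-related protein gene LOC4335744 one of −2.32.

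Signalling and regulation held 9 members, 13.0% of those annotated and close to the 12.1% of all tied probes. Of these, LOC4336787 on chromosome 4, a RING-H2 finger protein of the ATL type, was the brightest, with 441 and 690 in MB and 130 to 317 in the CMS lines (−1.45). ER2 (LOC4330905, chromosome 2) read 91.3 and 241 in MB, 36.0 and 39.2 in D62A, 22.4 and 41.8 in ZhenShan97A, and 9.78 and 23.1 in XQZ-A (−2.52). RefSeq names it for an ERECTA-type receptor kinase and the study's annotation for a phytosulfokine receptor, so its ligand is not settled by its names. ABIL2 (LOC4327786, −2.02), the C3HC4 zinc finger gene LOC4324244 (−1.69) and a gibberellin 20-oxidase (Os07g0169700, −1.31), an enzyme of gibberellin synthesis, also belonged to this group. Transport had 2 members (2.90%, against 3.70%), the potassium transporter LOC9271735 (391 and 387 in MB, 69.7 to 182 in the CMS lines) and the amino acid transporter LOC4340560 (50.2 and 102 in MB, at most 18.0). The 2 chloroplast members (2.90%, against 1.76%) are annotated as photosystem subunits (LOC4351694, −1.28; Os01g0773700, −1.69). A further 10 annotated members fell in no group (14.5%, against 48.4%), and 11 were described only as expressed proteins (15.9%, against 14.6%). The first of these include the DUF221 protein LOC4352647 (−1.33), the transferase LOC4346335 (−1.77), the phosphorylmutase LOC4351693 (−1.51) and the aldehyde dehydrogenase LOC4345685 (−1.56).

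The genes with a RefSeq name were, apart from ER2, shallow. FOR1 (LOC4343645, chromosome 7), a polygalacturonase inhibitor linked in rice to floral organ number, read 330 and 946 in MB, 138 and 312 in D62A, 114 and 235 in ZhenShan97A, and 96.0 and 149 in XQZ-A (−1.69). SUS2 (LOC4340386, chromosome 6), a sucrose synthase that splits sucrose for sink tissues, read 313 and 592 in MB and 107 to 229 over the CMS arrays (−1.41). Its second probe, not a member, had a median ratio of −1.81 and passed on 5 of the 6 arrays. The secretory phospholipase gene pla2-II (LOC4332319) read 83.0 and 239 against 29.1 and 90.9 in ZhenShan97A, and its replicate 2 CMS values of 90.9 to 115 exceeded MB replicate 1. PHYA (LOC4333930), the phytochrome A photoreceptor, was dim, with 34.8 and 49.8 in MB and 14.4 to 24.4 in the CMS lines. Its median ratio of −1.12 was near the threshold.

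The threshold cut through a continuous range. Just inside it stood LOC4330012, with −1.005 on ZhenShan97A replicate 1, and a probe annotated as a SAR DNA-binding protein (Os02g0511800), with −1.001 on ZhenShan97A replicate 2. Just outside were LOC4325145, which missed by D62A replicate 2 alone, and a cytochrome b5-like probe, which missed by D62A replicate 1 alone, both at −0.998. In all, 97 probes passed on 5 of the 6 arrays. The array they missed was D62A replicate 2 for 37, D62A replicate 1 for 22, ZhenShan97A replicate 1 for 18, ZhenShan97A replicate 2 for 13 and an XQZ-A array for 4 and 3. A further 129 probes were at least 1 lower on all replicate 2 arrays but had an MB replicate 1 intensity under 32.

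Such near misses included genes of the same pathway. A list of 24 rice genes of pollen wall formation and tapetum development was set beside the members. No probe was tied to TIP2, DPW, ABCG15, ACOS12, PKS2, DPW2, GPAT3, NP1 or CP1, so whether they belong to the set is not known here. The other 15 could be tied to a probe. For 10 of these the tie came from the study's tables, which list probes selected on these arrays, so low ratios among them follow in part from how they were found. These 10 include the 4 members (CYP704B2, CYP703A3, PKS1 and TKPR2), and their medians ran from −3.55 to −0.64. The 5 tied by RefSeq name (TDR, UDT1, GAMYB, PTC1 and AP37) held no member, and their medians ran from −0.73 to 0.08. TKPR1, the partner reductase of TKPR2, had a median of −2.56 and missed only by −0.98 on ZhenShan97A replicate 1. RTS, a small tapetum-specific protein, had a median of −1.77 and missed by −0.75 on the same array. For the lipid gene WDA1 and the aspartic protease gene AP25, MB replicate 1 read 30.1 and 30.2, just too dim for the rule, whereas on replicate 2 their ratios ran from −1.85 to −1.69 and from −3.42 to −3.01.

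EAT1, a transcription factor of tapetal cell death, parted the lines. It read 92.9 and 99.9 in MB, and its ratios were −2.54 and −2.25 in D62A and −2.54 and −2.64 in XQZ-A, but −0.49 and −0.18 in ZhenShan97A. GAMYB, a regulator of anther development that responds to gibberellin, had a median ratio of 0.08. TDR, a transcription factor of tapetum development, read 15.02 on MB replicate 1, under the floor, so its replicate 1 ratios are 0 by construction; on replicate 2 they were −1.73 in D62A, −1.47 in ZhenShan97A and −1.73 in XQZ-A. ABCG26, AP37 and PTC1, with MB replicate 1 values of 11.1 to 24.0, had ratios between −2.29 and −0.56 on replicate 2. Of the 15 genes, 9 were at least 1 lower on all 3 replicate 2 arrays, and 7 had MB replicate 1 under 32.

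**Figure D3:**
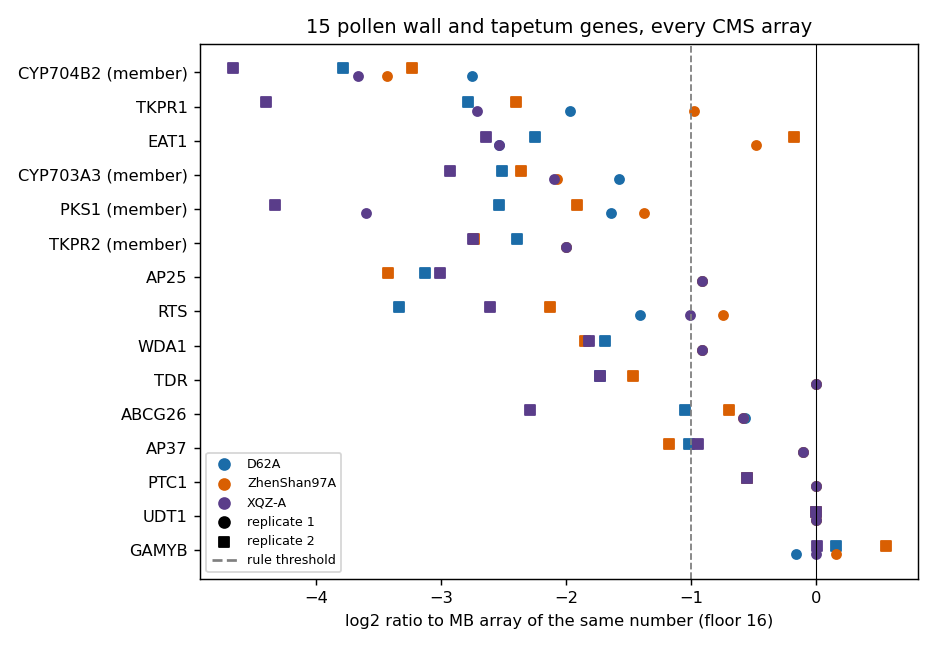
Log2 ratio to the MB array of the same number for the 15 listed genes that could be tied to a probe, on each of the 6 CMS arrays (colours are lines, circles replicate 1, squares replicate 2, dashed line the threshold of −1). The 4 members lie left of the line throughout, TKPR1 and RTS miss it by ZhenShan97A replicate 1, and EAT1 by both ZhenShan97A arrays.

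By array, the median log2 ratio over the members was −1.64 and −1.88 in D62A, −1.60 and −1.86 in ZhenShan97A, and −1.94 and −2.54 in XQZ-A. Replicate 2 was the deeper in 96 of 134 members, and this share was not computed over all probes. On replicate 1, 46 members were at the floor in D62A, 42 in ZhenShan97A and 72 in XQZ-A. On replicate 2 these were 17, 11 and 30, so more of the replicate 1 ratios are bounds. The MB arrays themselves were further apart for members than for other probes: MB replicate 2 exceeded replicate 1 by a median of 1.12 (log2) over the members and 0.32 over the probes that could meet the rule. In the CMS lines the same difference over members was 0.69 in D62A, 0.83 in ZhenShan97A and 0.44 in XQZ-A. The 2 ratios of a line differed by a median of 0.63 in D62A, 0.40 in ZhenShan97A and 0.62 in XQZ-A. All 6 ratios share the MB arrays.

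**Figure D4:**
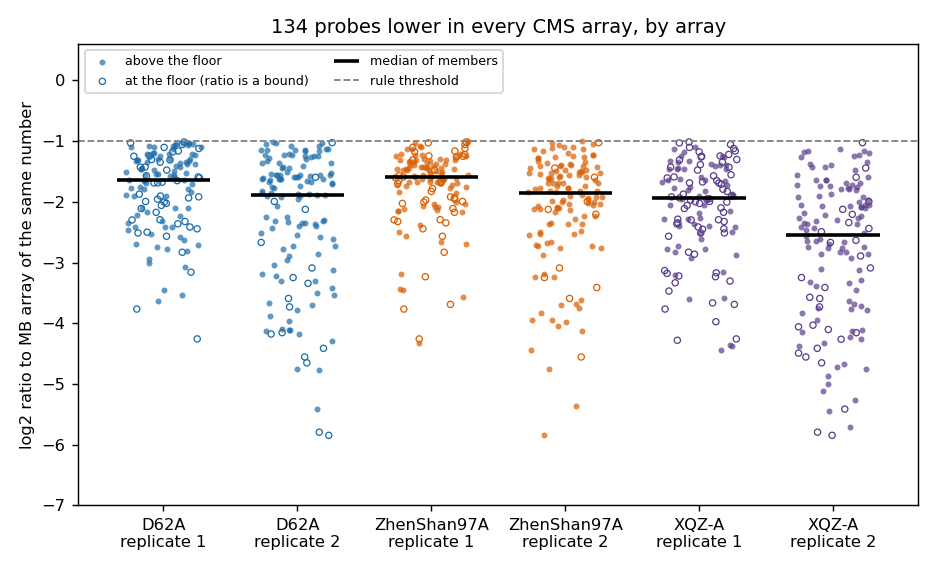
Log2 ratio of each of the 134 members to the MB array of the same number, by CMS array; open circles are values at the floor, black bars the medians and the dashed line the threshold. Medians run from −1.60 on ZhenShan97A replicate 1 to −2.54 on XQZ-A replicate 2, the lowest.

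Among the CMS lines, XQZ-A had the lowest mean ratio in 95 members (70.9%, against 51.4% of the probes that could meet the rule). D62A and ZhenShan97A were lowest in 11 each (8.21%, against 23.6% and 24.7%), and 17 members had no single lowest line. ZhenShan97A was the highest in 71, D62A in 48 and XQZ-A in 7, and the shares of the highest line were not computed over all probes. XQZ-A lay below D62A in both replicate numbers in 71 members (53.0%, against 45.9%) and below ZhenShan97A in 74 (55.2%, against 53.3%).

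Differences between CMS lines were tested with limma over 20416 probes, in a model with line and replicate number. The rule set an upper limit on every CMS array, so any probe less than 2-fold below MB on a CMS array was left out. From below, the floor limited how far apart the lines could lie. In the 8 members at the floor on all 6 CMS arrays the differences are 0 by construction, and 69 more had some arrays at the floor. The member counts and differences that follow are therefore not independent of the rule and the floor, and the size of this effect was not tested. At an adjusted p under 0.01 with a 2-fold change, 0 members were called between ZhenShan97A and the mean of D62A and XQZ-A, and 0 between D62A and XQZ-A, and the share called over all probes was 0% in either direction. At an unadjusted p under 0.05, 33 members were higher in ZhenShan97A (15.5% of all probes were) and 2 lower (6.08%), and 41 were higher in D62A than in XQZ-A (9.28%) and 0 lower (4.36%). The median difference over members was 0.18 for ZhenShan97A and 0.28 for D62A minus XQZ-A, where that over all probes fitted was −0.01 and 0.00.

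At an adjusted p under 0.05 with a 2-fold change, a looser limit than the main one, 7 members were higher in ZhenShan97A and 0 lower, where 0.96% and 0.0686% of all probes were. LOC4346354 had an adjusted p of 0.0143 in limma, equal to the lowest over all probes, a value that other probes share. Its log2 difference was 2.74 ± 0.22 (SE). PKS1 followed CRP2 with 1.38 ± 0.19 and 1.35 ± 0.17 and adjusted p of 0.0233 and 0.0224 in limma. ABIL2 was higher by 1.08 ± 0.19 (limma adjusted p = 0.0362). It read 137 and 267 in MB, 46.3 and 90.9 in ZhenShan97A, 40.7 and 54.6 in D62A, and 18.6 and 21.5 in XQZ-A, so that D62A lay nearer to ZhenShan97A than to XQZ-A, as it did in PKS1 and CRP2. The expressed protein Os01g0361700 was higher by 2.28 ± 0.38 (limma adjusted p = 0.0345). That protein read 67.7 and 164 in ZhenShan97A, 24.8 and 34.8 in D62A, 5.23 and 15.5 in XQZ-A, and 161 and 682 in MB. The remaining 2 probes have no gene, with differences of 2.07 and 1.55.

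Between D62A and XQZ-A, 1 member passed the looser limit, LOC4330012 on chromosome 2, against 0.0294% of all probes in that direction; 0.0245% were lower. It read 241 and 391 in D62A, 258 and 297 in ZhenShan97A, 58.1 and 116 in XQZ-A, and 519 and 826 in MB. The difference was 1.91 ± 0.19 (SE), with a limma adjusted p of 0.0477. The gene therefore stood at the edge of the rule in D62A and ZhenShan97A and about 3 log2 units below MB in XQZ-A (−3.16 and −2.83). PKS1 and CRP2 had nearly the same difference, 1.87 and 1.88, and missed this limit with a limma adjusted p of 0.0546 each.

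**Figure D5:**
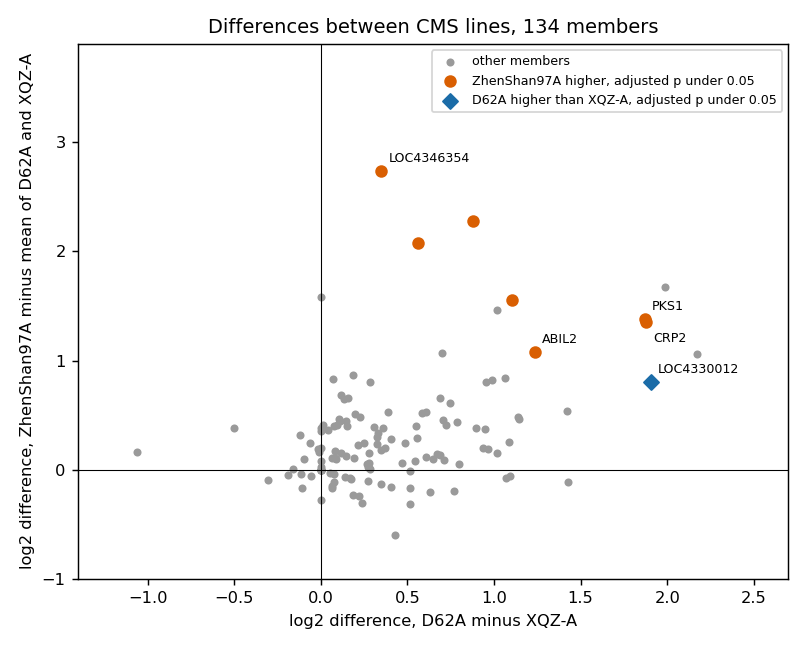
Log2 difference of ZhenShan97A from the mean of D62A and XQZ-A (vertical) against that of D62A from XQZ-A (horizontal) for the 134 members. The 7 members past the looser limit in ZhenShan97A and the 1 in D62A are marked, and 97 and 107 members have a positive difference on the respective axes.

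On the chromosomes, 15 of the 83 member genes lie on chromosome 4 (18.1%, against 9.13% of the 14661 genes with a probe) and 1 on chromosome 11 (1.20%, against 4.64%). Medians on chromosome 4 ran from −3.23 to −1.30. At most 2 coding genes separate the members of 4 pairs. Such pairs were not counted among other genes, so closeness of the members was not tested. TKPR2 and BBTI8 are direct neighbours on chromosome 1, as are LOC4351693 and LOC4351694 on chromosome 12. The GDSL lipase gene LOC4346354 and the peptidase gene LOC4346356 are 1 gene apart on chromosome 8, and the desiccation-related gene LOC4335744 and LOC4335746 are 2 apart on chromosome 4. The medians were −2.20 for TKPR2 and −3.29 for BBTI8, −1.51 for LOC4351693 and −1.28 for LOC4351694, −4.0 for LOC4346354 and −1.41 for LOC4346356, and −2.32 for LOC4335744 and −1.33 for LOC4335746. Both probes of LOC4341486 on chromosome 6 were members, with medians of −2.43 and −2.20.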

How the data were processed

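The authors deposited normalized intensity values on a linear scale, 1 per probe and array; the labels name MAS5 (version not given in the sources used here) and the methods Robust Multichip Analysis with log transformation. A second deposited table held 98 more control probe sets and 0 differences otherwise. Intensities were floored at 16 and log2 transformed, and each CMS array was set against the MB array of its replicate number. Line differences were fitted with limma 3.58.1 in R 4.3.3 on the 20416 brighter probes (mean intensity of at least 14.89), with replicate number as a term, empirical Bayes moderation (3 residual and 3.96 prior degrees of freedom) and Benjamini-Hochberg adjustment; the thresholds follow the study's methods, which named a t test. Deviations between replicates correlated by 0.728 to 0.839 in the 6 pairs of lines, which is why the number was kept. On simulated data the fit recovered, at adjusted p under 0.01, 93 of 100 probes changed 4-fold and 0 of 100 changed 2-fold for ZhenShan97A (89 and 0 for D62A minus XQZ-A). The changed probes were drawn from bright probes only, without the floor, and with a looser fold limit than the main one. Recovery for members near the floor was therefore not measured.

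Genes came from the platform annotation through RefSeq. Annotations were tied to probes where a printed row, with its D and DA columns exchanged, matched a single probe within 0.005 (695 of 734 rows). Under the line names as printed, 5 of the 734 rows matched a probe. Chromosomes matched for 399 of 400 tied probes in a gene. Python 3.11.15, numpy 2.4.6, pandas 2.3.3 and matplotlib 3.10.9 were used. The members and lists were chosen with earlier results of these data known. Named were: members with a symbol, the 10 lowest by ratio and the 10 brightest with a gene, up to 4 per annotation group, those next to the threshold, those called between lines, and those on the pollen wall list; any other member named was picked with its values in view. The authors' own comparison columns were not used. Promoters and proteins were not analysed here.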

Additional observations from a re-analysis of the deposited data

How the results depend on the processing

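With 2 arrays per line and MB shared by all ratios, the set depends on the rule more than on the scale. It held 89 members with a floor of 32, all among the 134 by construction. The sets with a floor of 8, no floor or quantile normalization stayed within 1.5 times, at 142 to 179. They kept 114 to 134 of the 134, where the floor of 8 keeps all of them by construction. A minimum decrease of 1.5 left 47 and of 2 left 20. With no replicate block, 61 probes passed against the MB array of the other number (45 of them among the 134), and 45 had their highest CMS array at least 1 below the lowest MB array. Leaving out single arrays gave 137 to 363, and the extremes were MB replicate 1 (363, its CMS partners left out too) and MB replicate 2 (317). Each such set holds all 134 by construction, since leaving out an array only removes conditions from the rule. The counts of shared probes were added after seeing the data.

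Between CMS lines, no replicate block, all probes and quantile normalization gave 0 member and 0 probe calls in either comparison. For ZhenShan97A, no floor called 2 members and 8 probes, a mean-variance trend 0 and 7, and an adjusted p under 0.05 called 7 and 210; for D62A minus XQZ-A, no floor called 0 and 1, and an adjusted p under 0.05 called 1 and 11. Leaving out single arrays gave 0 to 1 member and 0 to 47 probes for ZhenShan97A, and 0 to 1 member and 0 to 112 probes for D62A minus XQZ-A. Both highest counts came from leaving out D62A replicate 1; the cause was not tested. Of 451 alternative medians for 45 named members, 17 moved by more than the spread over arrays, 12 of them on leaving out an MB array, and 0 changed sign. On leaving out an array no sign could change, since every ratio of a member is at or below −1.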
